A study of Homo sapiens with 8 samples.

Results

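The genes that write, copy, erase or remodel DNA methylation were followed across a knockdown of UHRF1, the adaptor of maintenance methylation. The members were the 10 genes UHRF1, UHRF2, DNMT1, DNMT3A, DNMT3B, TET1, TET2, TET3, HELLS and CDCA7, taken as the rows with these gene names in the expression tables. Each had 1 row in every library, so all 10 were found among 60649 gene identifiers, of which 19960 were protein-coding. The study asked how much UHRF1 colorectal cancer cells need to keep tumor suppressor genes methylated and silent. Polyadenylated RNA was sequenced from HCT116 cells, which derive from a human colorectal carcinoma, and from UF1hypo cells, a heterozygous UHRF1 knockout clone of HCT116 from which the fourth exon of 1 UHRF1 allele was removed with Cas9 and Cre. Both lines were infected with a pLKO.1 lentivirus that expressed a non-targeting hairpin, shScr, or one against UHRF1, shUHRF1, and kept as puromycin-selected pools, so that the hairpin vector and the selection were common to all groups. The 4 groups HCT116 shScr, HCT116 shUHRF1, UF1hypo shScr and UF1hypo shUHRF1 had 2 libraries each. UF1hypo is a single clone, and the effect of the deleted allele cannot be told apart from other properties of that clone.

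DNA methylation at CpG sites is copied after replication. UHRF1 binds hemimethylated DNA and brings DNMT1, the maintenance methyltransferase, to it, and UHRF2 is its paralog. DNMT3A and DNMT3B place new methyl groups, the nucleosome remodeler HELLS and its partner CDCA7 open chromatin for the maintenance machinery, and the dioxygenases TET1, TET2 and TET3 oxidise 5-methylcytosine on the way to its removal.

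Levels are given in TPM, the deposited values scaled for transcript length and to an equal total in each library. A log2 fold change is the difference between the group means of log2(TPM + 1), which understates the change of low genes. A gene passed when its adjusted p-value was below 0.05 in limma with Benjamini-Hochberg adjustment over all protein-coding genes tested, and was called when its absolute log2 fold change was also above 1. Nothing in the labels says that the 2 libraries of a group came from separate cultures, so the p-values measure the spread between libraries only. With 2 libraries in each group, the smallest two-sided exact permutation p of a single gene is 0.333.

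Library depth was 5.42 to 7.83 aligned gigabases, and read counts per gene are unknown. Pearson's r between the 2 libraries of a group was 0.991 to 0.992 over 13781 genes in 3 groups and 0.956 in UF1hypo shUHRF1. The UF1hypo shUHRF1 libraries stood apart from each other with GC content. The difference of replicate 1 from replicate 2 had a Spearman's rho of 0.814 with the GC content of the transcript in that group and of -0.508 in UF1hypo shScr, against -0.0417 and -0.0680 in the HCT116 groups. Several results that involve UF1hypo shUHRF1 are therefore also given without 1 of its libraries or after a correction for GC content and length. Without 1 of them the group holds 1 library, and the spread between its libraries does not enter the test. A pass in such a fit therefore does not show that a call is stable. Of 8 epithelial markers, 7 exceeded a TPM of 1 in some library and VIL1 did not, with a summed TPM of 4559 to 5836 in HCT116 and 9239 to 13271 in UF1hypo libraries. Leukocyte markers summed to at most 2.46 TPM, endothelial markers to at most 1.94 and fibroblast markers to 21.2 to 66.2, the last from COL1A1 alone above 1.

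UHRF1, the gene targeted by the hairpin, was lower after knockdown in both lines and lower in UF1hypo than in HCT116 before it. The gene lies at chr19:4903080-4962154 on the plus strand of GRCh38. Its level was 87.5 and 98.4 TPM in HCT116 shScr and 31.7 and 32.7 TPM in HCT116 shUHRF1. In UF1hypo it was 47.3 and 50.6 TPM with shScr and 34.1 and 21.1 TPM with shUHRF1. The groups did not overlap in either knockdown, nor between the lines with shScr, but HCT116 shUHRF1 lay within the range of UF1hypo shUHRF1.

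UHRF1 RNA in HCT116 shUHRF1 was 34.6% of the HCT116 shScr mean. The knockdown left 56.4% in UF1hypo, where the clone itself was at 52.7% of HCT116 with shScr. UF1hypo shUHRF1 reached 29.7% of HCT116 shScr. The value counts transcripts of the whole gene, and reads of the allele without the fourth exon are not separated from those of the other allele.

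The knockdown of UHRF1 in HCT116 gave a log2 fold change of -1.50 ± 0.22 (SE, 95% interval -2.0 to -0.99), with an adjusted p of 0.0564 in limma over 12704 genes. It did not pass, and 0.0708% of all genes did so in this comparison. With the 4 HCT116 libraries alone, the SE of the same difference was 0.106 and the adjusted p in limma 1.04e-04, in a fit where 4.05% of all genes passed. With the replicate block the adjusted p was 0.135 in limma. Leaving out 1 library gave fold changes from -1.58 to -1.41, and UHRF1 passed in 6 of 20 alternatives in all.

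In UF1hypo the log2 fold change of UHRF1 on knockdown was -0.84 ± 0.22 (SE, 95% interval -1.35 to -0.34), and UHRF1 passed with an adjusted p of 0.0406 in limma over 13620 genes. It was -1.17 without UF1hypo shUHRF1 replicate 1 and -0.51 without replicate 2, fits in which the spread of that group did not enter the test. Leaving out any 1 of the other 6 libraries, which kept the spread between the UF1hypo shUHRF1 libraries in the test, ended this call. It was also lost with the 4 UF1hypo libraries alone (adjusted p of 0.200), library weights (0.124), the replicate block (0.0669), no TPM filter (0.0573) and quantile normalization (0.0502), and UHRF1 passed in 10 of 21 alternatives in all. The difference of the knockdown effects, UF1hypo minus HCT116, was 0.66 (95% interval -0.06 to 1.37, adjusted p of 0.316 in limma), and it did not pass. It was 0.44 (adjusted p of 0.169 in limma) with GC content and length corrected. Without UF1hypo shUHRF1 replicate 1 it was 0.32 and without replicate 2 it was 0.99, so its size depended on which library was kept.

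**Figure D1:**
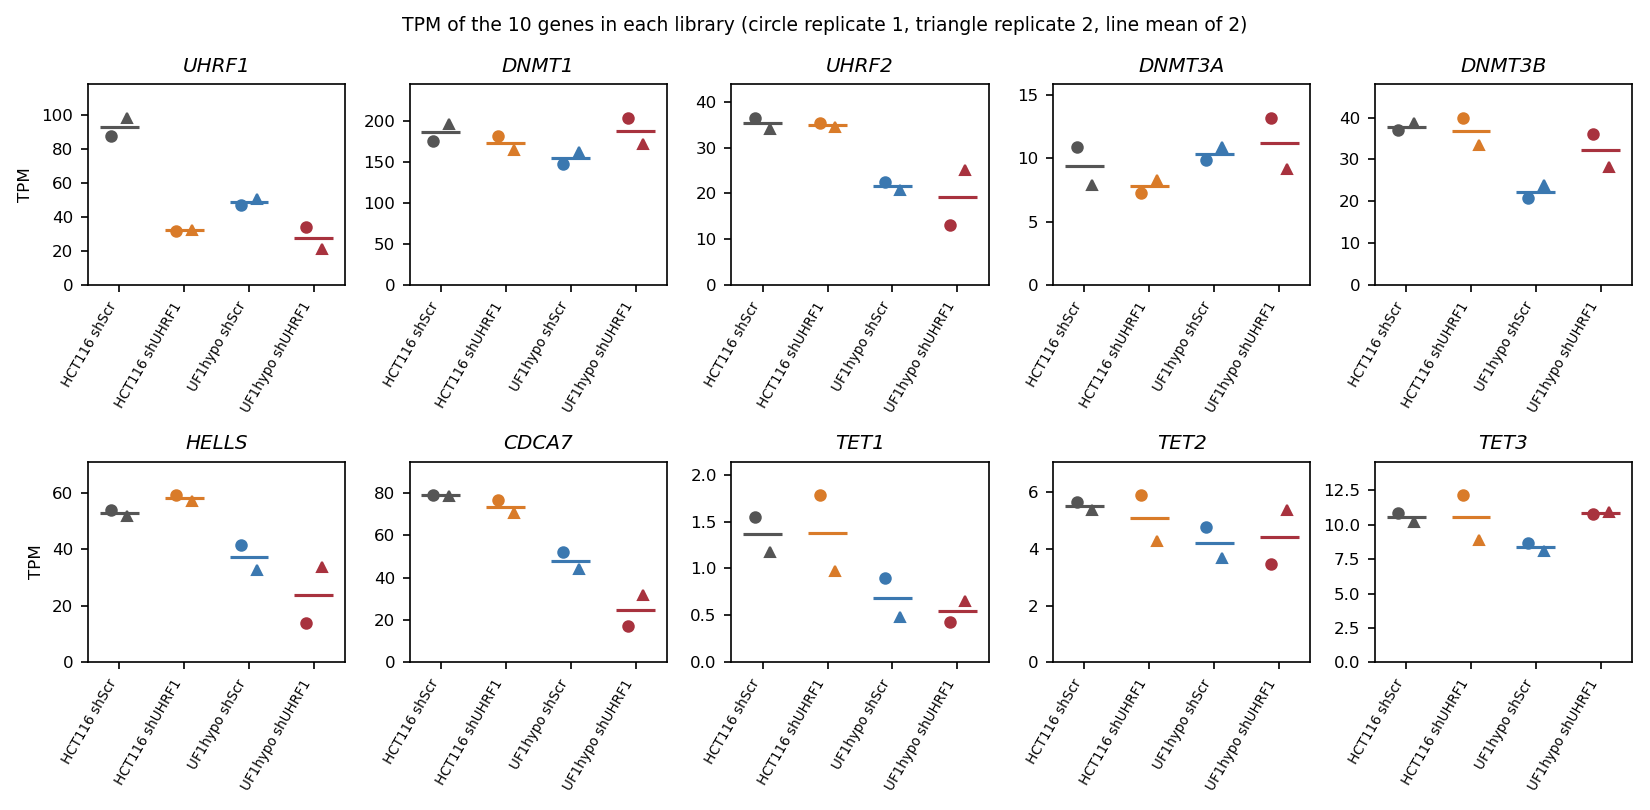
TPM of each of the 10 genes (vertical axes, from 0) in the 4 groups, with a circle for replicate 1, a triangle for replicate 2 and a line at the mean of 2 libraries. UHRF1 lay at 87.5 and 98.4 TPM in HCT116 shScr and at 31.7 and 32.7 TPM in HCT116 shUHRF1, and in UF1hypo shUHRF1 the libraries of UHRF2, HELLS and CDCA7 lay far apart.

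DNMT1, the enzyme that UHRF1 recruits, was between 147 and 204 TPM in all 8 libraries. The gene is on the minus strand at chr19:10133342-10231286. HCT116 had 176 and 196 TPM with shScr and 182 and 165 TPM with shUHRF1, and UF1hypo had 147 and 162 TPM with shScr and 204 and 172 TPM with shUHRF1. In HCT116 the knockdown groups overlapped, and in UF1hypo both shUHRF1 libraries were above both shScr libraries. Neither difference passed. The log2 fold change was -0.10 (95% interval -0.45 to 0.25) in HCT116 and 0.28 (95% interval -0.07 to 0.62) in UF1hypo. The UF1hypo value was 0.15 without UF1hypo shUHRF1 replicate 1, passed at 0.40 with an adjusted p of 0.0337 in limma without replicate 2, and was 0.084 with GC content and length corrected. The ratio of DNMT1 to UHRF1 TPM was 2.01 and 1.99 in HCT116 with shScr against 5.75 and 5.03 with shUHRF1, and 3.11 and 3.20 in UF1hypo with shScr against 5.98 and 8.12 with shUHRF1. This ratio did not overlap between shScr and shUHRF1 in either line. Neither did its denominator UHRF1, the target of the hairpin, so the ratio is no separate result on DNMT1.

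UHRF2, the paralog of UHRF1, was at 36.5 and 34.0 TPM in HCT116 shScr and at 35.4 and 34.4 TPM in HCT116 shUHRF1, so the groups overlapped on knockdown. The gene lies at chr9:6413151-6507054 on the plus strand. In UF1hypo it was at 22.6 and 20.8 TPM with shScr and at 13.1 and 25.1 TPM with shUHRF1, where 1 library was below and the other above both controls. Its log2 fold change there was -0.24, and without UF1hypo shUHRF1 replicate 1 it was 0.20, whereas without replicate 2 it passed at -0.69 with an adjusted p of 0.00692 in limma. UHRF1 took 70.6% and 74.3% of the summed TPM of the pair in HCT116 shScr and 47.2% and 48.7% in HCT116 shUHRF1. In UF1hypo its share was 67.7% and 70.9% with shScr and 72.2% and 45.7% with shUHRF1, so that on TPM 1 of the UF1hypo shUHRF1 libraries was above both controls and the other below. With GC content and length corrected, the log2 value of UHRF1 minus that of UHRF2 was 0.76 and -0.17 in UF1hypo shUHRF1 and 1.08 and 1.14 in UF1hypo shScr, so both knockdown libraries were then below both controls.

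The de novo methyltransferases differed from each other in level and pattern. DNMT3B, at chr20:32762385-32809356 on the plus strand, was at 37.0 and 38.6 TPM in HCT116 shScr and 39.9 and 33.5 TPM in HCT116 shUHRF1, which overlapped. In UF1hypo it was at 20.7 and 23.8 TPM with shScr and at 36.1 and 28.2 TPM with shUHRF1, both above both controls. The log2 fold change in UF1hypo was 0.51 (95% interval 0.07 to 0.94) and did not pass, with an adjusted p of 0.122 in limma, but it passed at 0.33 with an adjusted p of 0.0371 with GC content and length corrected. It was 0.33 with an adjusted p of 0.180 without UF1hypo shUHRF1 replicate 1 and 0.68 with an adjusted p of 0.0148 without replicate 2. DNMT3B took 11.7% and 12.1% of the summed DNMT1, DNMT3A and DNMT3B TPM in the UF1hypo shScr libraries and 14.3% and 13.5% after knockdown there, against 15.9% to 17.4% in the HCT116 libraries.

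DNMT3A, at chr2:25227855-25342590 on the minus strand, was the least abundant of the 3 methyltransferases in every library. HCT116 had 10.9 and 7.90 TPM with shScr and 7.29 and 8.31 TPM with shUHRF1, and UF1hypo had 9.86 and 10.9 TPM with shScr and 13.2 and 9.20 TPM with shUHRF1. Knockdown groups overlapped in both lines. Knockdown changed its log2 value by -0.23 in HCT116 and by 0.08 in UF1hypo, with 95% intervals of -0.77 to 0.32 and -0.47 to 0.63, and the UF1hypo value turned to -0.16 when corrected for GC content and length.

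HELLS and CDCA7, which act together in chromatin remodeling, had their lowest mean levels in UF1hypo shUHRF1, with a wide gap between its libraries. CDCA7 lies at chr2:173354820-173368997 on the plus strand. Its level in HCT116 was 78.9 and 78.7 TPM with shScr and 76.4 and 70.7 TPM with shUHRF1. In UF1hypo it was 51.9 and 44.1 TPM with shScr and 17.4 and 31.6 TPM with shUHRF1. The shUHRF1 libraries were below the shScr libraries in both lines, by a small margin in HCT116.

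CDCA7 fell on knockdown in UF1hypo, with a log2 fold change of -0.996 ± 0.25 (SE, 95% interval -1.58 to -0.42) and an adjusted p of 0.0359 in limma. Its fold change in HCT116 was -0.10 (95% interval -0.67 to 0.47). The difference of the knockdown effects was -0.90 (95% interval -1.72 to -0.08) and did not pass, with an adjusted p of 0.226 in limma. With GC content and length corrected it passed at -0.83 with an adjusted p of 0.00798. It was -0.48 without UF1hypo shUHRF1 replicate 1 and -1.31 without replicate 2. Without UF1hypo shUHRF1 replicate 1 the fall in UF1hypo was -0.58 and without replicate 2 it was -1.41, fits in which the spread of that group did not enter the test. Leaving out any 1 of the other 6 libraries, with that spread kept, ended the call. The 4 UF1hypo libraries alone (adjusted p of 0.184), library weights (0.0832), no TPM filter (0.0595), the replicate block (0.0574) and coverage per gigabase (0.0544) ended it too, and CDCA7 passed in 10 of 21 alternatives.

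HELLS, at chr10:94501434-94613905 on the plus strand in the tables, was at 54.0 and 51.6 TPM in HCT116 shScr and 59.2 and 57.2 TPM in HCT116 shUHRF1. In UF1hypo it was at 41.7 and 32.8 TPM with shScr and 13.9 and 33.6 TPM with shUHRF1. Knockdown libraries of HCT116 were thus slightly above their controls, and those of UF1hypo overlapped them through replicate 2. The log2 fold change in UF1hypo was -0.74 (95% interval -1.52 to 0.04, adjusted p of 0.204 in limma), and it was -0.13 without replicate 1 and -1.35 without replicate 2. With GC content and length corrected it was -0.59 with an adjusted p of 0.0139. The difference of the knockdown effects was -0.88 with an adjusted p of 0.395, -0.78 with an adjusted p of 0.0305 after the correction, -0.27 with an adjusted p of 0.405 without UF1hypo shUHRF1 replicate 1 and -1.49 with an adjusted p of 0.00634 without replicate 2.

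The replicate difference in UF1hypo shUHRF1 split the members by the GC content of their transcripts. Transcripts of HELLS, TET2, CDCA7, TET1 and UHRF2 had GC contents of 38.8% to 44.1%, and those of TET3, DNMT3A, DNMT3B, DNMT1 and UHRF1 had 53.2% to 55.7%. In UF1hypo shUHRF1 the 5 members of low GC content were all lower in replicate 1 than in replicate 2. Of the 5 members of high GC content, 4 were higher in replicate 1, and TET3 was at 10.8 and 10.9 TPM. After the correction, the log2 value of HELLS was 4.50 and 4.93 in this group against 3.90 and 5.11 before it, and that of CDCA7 was 4.63 and 4.89 against 4.20 and 5.03. Both genes then lay below both UF1hypo shScr libraries, at 5.38 and 5.23 for HELLS and 5.70 and 5.59 for CDCA7.

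**Figure D2:**
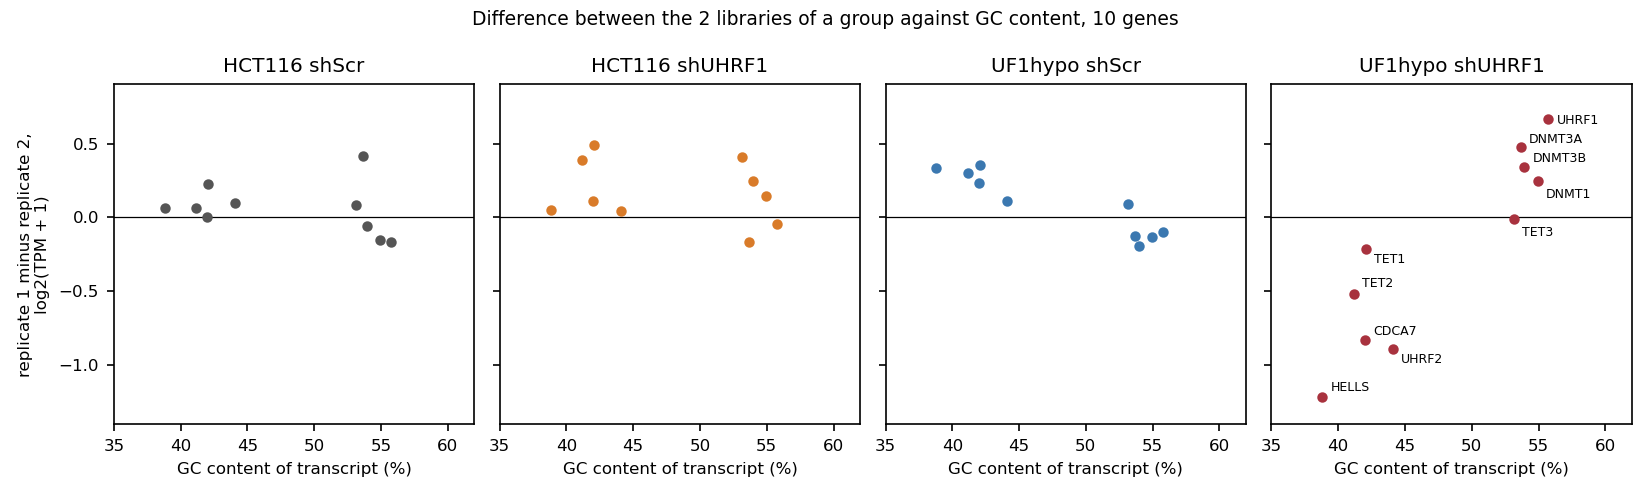
Difference of log2(TPM + 1) between replicate 1 and replicate 2 (vertical axis) against the GC content of the transcript in % (horizontal axis) for the 10 genes in each of the 4 groups. In UF1hypo shUHRF1 the genes of 38.8% to 44.1% GC lay below 0, from HELLS at the bottom to TET1, and UHRF1 lay at the top.

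**Figure D3:**
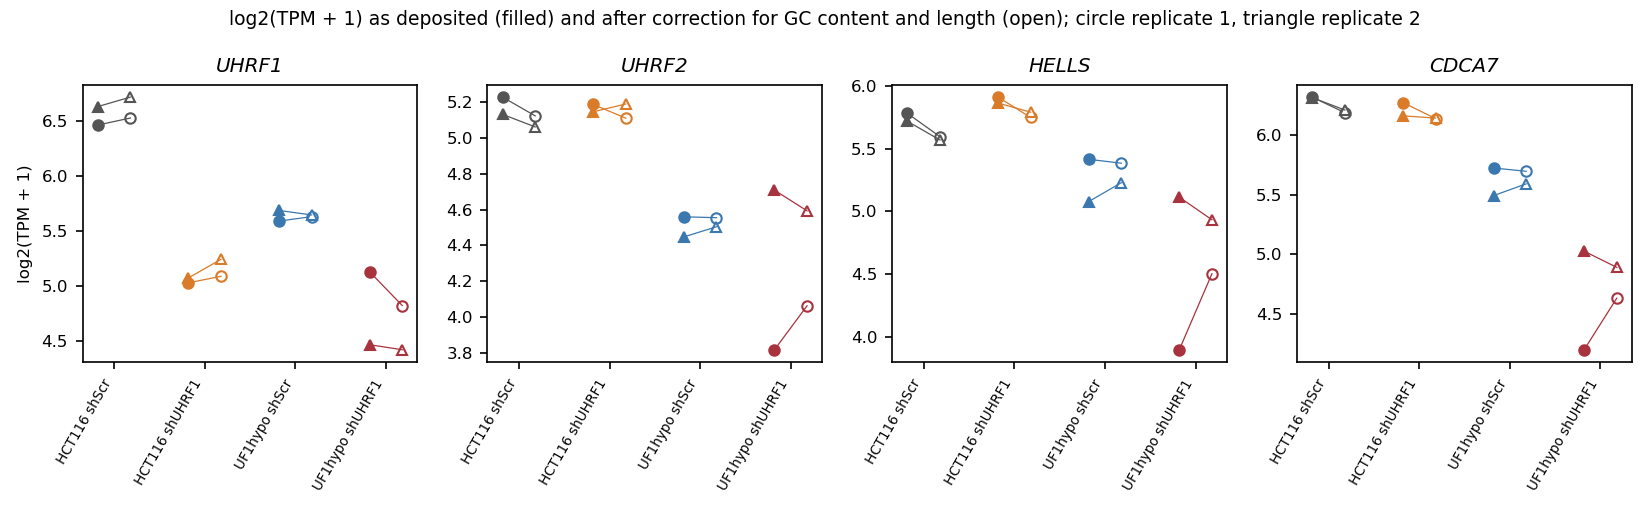
log2(TPM + 1) of UHRF1, UHRF2, HELLS and CDCA7 as deposited (filled) and after removal of each library's median within bins of GC content and length (open), with a circle for replicate 1 and a triangle for replicate 2. The correction brought the UF1hypo shUHRF1 libraries of HELLS from 3.90 and 5.11 to 4.50 and 4.93, and those of UHRF1 from 5.13 and 4.47 to 4.82 and 4.42.

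Promoters are shown for UHRF1, HELLS and CDCA7, the members that varied most over the 8 libraries and the ones with a form of the E2F site. E2F factors drive genes of S phase entry. RefSeq promoters of GRCh38.p14, which reach from 250 bases before to 50 bases after an annotated start, were found for all 10 members, 21 promoters in all. The motifs TTTCCCGC and TTTGGCGC, which do not contain each other, were searched on both strands, and 1.63% and 0.652% of all 35116 promoters held them. Of the members, 3 had a match in 1 promoter each. Capitals mark the matches in the sequences, which run 5′ to 3′ on the plus strand at chr19:4909251-4909550 for UHRF1, chr10:94545538-94545837 for HELLS and chr2:173354622-173354921 for CDCA7.
UHRF1: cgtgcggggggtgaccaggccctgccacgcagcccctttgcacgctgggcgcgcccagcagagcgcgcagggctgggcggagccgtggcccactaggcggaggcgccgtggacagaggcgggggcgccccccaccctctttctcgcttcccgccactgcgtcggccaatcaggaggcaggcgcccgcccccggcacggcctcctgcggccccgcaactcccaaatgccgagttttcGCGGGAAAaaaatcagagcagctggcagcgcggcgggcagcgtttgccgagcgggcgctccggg
HELLS: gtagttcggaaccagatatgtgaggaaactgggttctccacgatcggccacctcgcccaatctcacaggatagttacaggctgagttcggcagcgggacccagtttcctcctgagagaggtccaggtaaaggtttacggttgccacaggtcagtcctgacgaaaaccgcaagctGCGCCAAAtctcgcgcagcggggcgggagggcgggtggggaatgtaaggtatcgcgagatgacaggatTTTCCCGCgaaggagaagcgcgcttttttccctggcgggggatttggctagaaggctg
CDCA7: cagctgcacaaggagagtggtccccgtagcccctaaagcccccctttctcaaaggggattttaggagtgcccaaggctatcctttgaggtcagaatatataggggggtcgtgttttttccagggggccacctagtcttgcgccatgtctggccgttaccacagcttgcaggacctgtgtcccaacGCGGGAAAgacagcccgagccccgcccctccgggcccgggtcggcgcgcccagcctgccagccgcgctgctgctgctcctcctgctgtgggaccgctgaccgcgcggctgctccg
TTTCCCGC began 8 bases before the start of HELLS on the gene strand, and its match on the opposite strand began 14 bases before the start of UHRF1 and 65 bases before that of CDCA7. HELLS also held TTTGGCGC on the opposite strand, 76 bases before its start. A match describes the letters only and shows no binding. CpG dinucleotides numbered 36, 22 and 20 in these promoters, against a median of 14 over all promoters. The members' promoters had a median of 26 and a range of 3 to 46.

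The TET dioxygenases were expressed at low levels, with TET3 above TET2 above TET1 on TPM in every library. TET3, at chr2:73984910-74108176 on the plus strand, was at 10.9 and 10.2 TPM (shScr) and 12.2 and 8.92 TPM (shUHRF1) in HCT116, and at 8.67 and 8.09 TPM (shScr) and 10.8 and 10.9 TPM (shUHRF1) in UF1hypo. In UF1hypo both knockdown libraries were above both controls, with a log2 fold change of 0.34 (95% interval -0.13 to 0.81) that did not pass and was 0.14 with GC content and length corrected. TET2, at chr4:105145875-105279816 on the plus strand, was at 5.67 and 5.37 TPM (shScr) and 5.90 and 4.27 TPM (shUHRF1) in HCT116, and at 4.77 and 3.69 TPM (shScr) and 3.46 and 5.38 TPM (shUHRF1) in UF1hypo. Its knockdown groups overlapped in both lines. TET1, at chr10:68560337-68694487 on the plus strand, was at 1.55 and 1.18 TPM in HCT116 shScr and 1.78 and 0.977 TPM in HCT116 shUHRF1. It stayed below 1 TPM in all UF1hypo libraries, with 0.893 and 0.481 TPM in shScr and 0.430 and 0.655 TPM in shUHRF1, and was therefore not tested for the knockdown in UF1hypo. TET3 took 60.1% to 66.0% of the summed TET TPM in 7 libraries and 73.5% in UF1hypo shUHRF1 replicate 1.

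Over the members as a list, no member passed on knockdown in HCT116. Both libraries were below both controls for UHRF1 and CDCA7 (29.3% of all genes in this direction) and above them for HELLS (20.1% of all genes). Among all 10 members, 1 had an unadjusted p below 0.05 in limma, as did 810 of all 12704 genes. The 9 members other than UHRF1 had log2 fold changes between -0.23 and 0.14, with 95% intervals that together reached from -0.77 to 0.90. The median over the members was -0.07, and that over all genes tested was -0.03.

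On knockdown in UF1hypo, 2 of 9 tested members passed, UHRF1 and CDCA7, and both fell. In this comparison 13.3% of all 13620 genes passed in either direction and 2.86% passed with a fall. The same members were below both controls (18.3% of all genes), and DNMT1, DNMT3B and TET3 were above both (30.6% of all genes). The median log2 fold change of the members was 0.04, equal to that of all genes at this precision. For the difference of the knockdown effects, no member passed against 5.22% of all genes. CDCA7 was the 1 member of 10 with an unadjusted p below 0.05 in limma, which 2549 of all 13781 genes had. Without UF1hypo shUHRF1 replicate 2, the members that passed were 6 in the UF1hypo knockdown and 5 in the difference, while the share of all genes that passed rose to 47.6% and 30.9%.

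**Figure D4:**
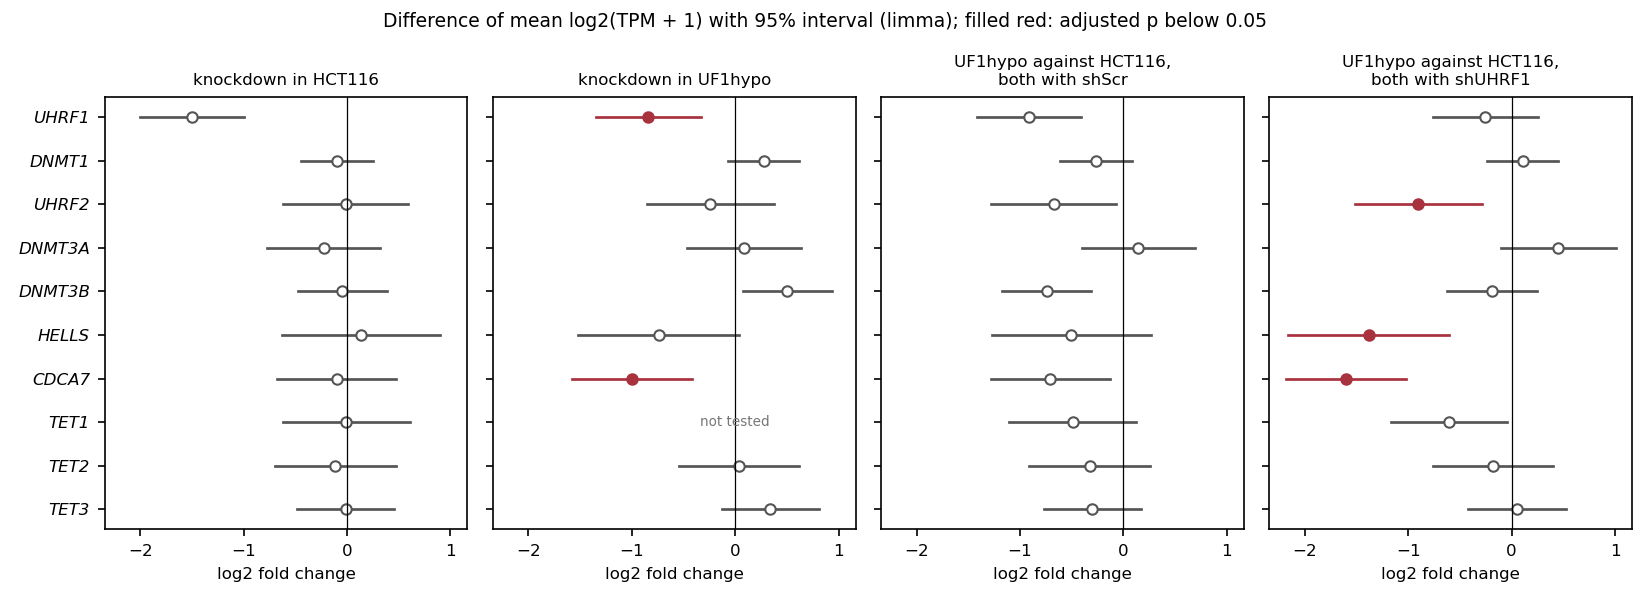
log2 fold change (horizontal axes, difference of mean log2(TPM + 1)) of the 10 genes with 95% intervals from limma in 4 comparisons, filled and red where the adjusted p was below 0.05. UHRF1 and CDCA7 passed on knockdown in UF1hypo, and UHRF2, HELLS and CDCA7 passed between the lines with shUHRF1.

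Before any knockdown of UHRF1, the clone already had lower levels of most members than the parental line. With shScr, 9 of 10 members were below HCT116 in both UF1hypo libraries, all but DNMT3A, while 37.2% of all 12856 genes were so and 29.1% were above. The fold changes of these 9 were below 0 in all 20 alternatives run. With GC content and length corrected, however, TET2 was at -0.052 and its groups overlapped. Its corrected log2 values were 2.54 and 2.41 in UF1hypo shScr and 2.51 and 2.53 in HCT116 shScr. The member median was -0.50 on the log2 scale and that of all genes was -0.05. No member passed, against 4.78% of all genes, and 4 members had an unadjusted p below 0.05 in limma, as did 2341 of all 12856 genes.

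Those 4 were UHRF1, DNMT3B, CDCA7 and UHRF2. The log2 fold change was -0.91 for UHRF1 (adjusted p of 0.0545), -0.74 for DNMT3B (0.0655), -0.71 for CDCA7 (0.175) and -0.68 for UHRF2 (0.223), all in limma. These 4 genes and HELLS, at -0.50, passed when either UF1hypo shUHRF1 library was left out or only the 4 libraries compared were fitted, with adjusted p-values of 7.64e-04, 0.00361, 0.00339, 0.00471 and 0.0262 in the last fit. In these 3 fits 25.1%, 25.0% and 23.9% of all genes passed, and without either HCT116 shScr library no member did. HELLS passed in 4 of 20 alternatives. With GC content and length corrected it was at -0.28 and did not pass. DNMT1 passed there with an adjusted p of 0.0407 in limma, in a fit where 15.9% of all genes passed. The levels of UHRF1, UHRF2, DNMT3B and CDCA7 in UF1hypo shScr were 52.7%, 61.6%, 58.9% and 60.9% of HCT116 shScr. Epithelial markers also differed between the lines, with the sums given above, and their part in these differences was not tested.

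With shUHRF1 in both lines, CDCA7, HELLS and UHRF2 passed as lower in UF1hypo, 3 of 10 members, where 30.2% of all 13650 genes passed and 9.60% passed as lower. CDCA7, at -1.61 ± 0.25 (SE, adjusted p of 0.00241 in limma), and HELLS, at -1.38 ± 0.34 (SE, adjusted p of 0.0174), were called, with 3.92% of all genes called lower. UHRF2 differed by -0.90 ± 0.27 (SE, adjusted p of 0.0355). CDCA7 passed in all 20 alternatives run for this comparison, with fold changes from -2.02 to -1.19, HELLS in 18 and UHRF2 in 10.

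HELLS was at -0.77 without UF1hypo shUHRF1 replicate 1 and at -1.99 without replicate 2, and UHRF2 was at -0.46 and -1.35. UHRF2, TET1, HELLS and CDCA7 were below HCT116 in both libraries (25.0% of all genes), and DNMT3A was above (36.0%). UHRF1 itself differed by -0.25 (95% interval -0.76 to 0.25, adjusted p of 0.409 in limma) between the knockdown groups of the lines. With GC content and length corrected it differed by -0.54 with an adjusted p of 0.0131, and without UF1hypo shUHRF1 replicate 2 the sign turned to 0.078.

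Levels between the members could be ordered on TPM, which is per length. In HCT116 shScr the order was DNMT1 at 186 ± 14.2 TPM (SD, n = 2), UHRF1 at 93.0 ± 7.73, CDCA7 at 78.8 ± 0.169, HELLS at 52.8 ± 1.67, DNMT3B at 37.8 ± 1.15, UHRF2 at 35.3 ± 1.71, TET3 at 10.5 ± 0.459, DNMT3A at 9.39 ± 2.1, TET2 at 5.52 ± 0.211 and TET1 at 1.36 ± 0.261. TET3 and DNMT3A were the only neighbours whose libraries overlapped. In UF1hypo shUHRF1, DNMT1 stayed first at 188 ± 22.8 TPM, and the libraries of each neighbouring pair from DNMT3B to TET3 in the order overlapped.

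On the deposited coverage, divided by the aligned gigabases of the library, the order differed. UHRF1 and CDCA7 led in HCT116 shScr at 23.3 and 23.1 per gigabase and overlapped, followed by DNMT3B at 14.7 and DNMT1 at 12.7. For TET1, which has 1 annotated transcript, coverage equalled what its FPKM and the library's aligned bases give. It was 0.149 to 0.160 of that for DNMT1, 0.146 to 0.165 for HELLS and 0.154 to 0.161 for TET2, which have 52, 21 and 9 transcripts in GENCODE 44. For DNMT3B, also with 21, it was 0.858 to 0.876, and for CDCA7, with 14, it was 0.642 to 0.674. Why this fraction differed between genes was not tested. The place of DNMT1 at the top of the members thus held on TPM and not on coverage in HCT116 shScr. TET1, at 0.603 per gigabase, was likewise above TET2, at 0.381, on coverage in HCT116 shScr, while on coverage these genes overlapped in the other groups.

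Over the 8 libraries, the profile of UHRF1 was compared with all 13781 genes by the root mean square difference of centred log2(TPM + 1) values. The nearest genes were CPLX1 at 0.243, TMEM158 at 0.282, GALNT18 at 0.296, HK2, a hexokinase of glycolysis, at 0.308 and GNAL at 0.319. The nearest member was TET1, at 0.657, so that no member followed the profile of UHRF1 closely. HELLS and CDCA7 were nearest to each other at 0.193, DNMT1 and TET3 at 0.131 and TET1 and TET2 at 0.187. UHRF2 was nearest to HELLS at 0.224, and DNMT3A and DNMT3B were both nearest to DNMT1, at 0.269 and 0.215. About their own means DNMT1 varied by 0.142 and DNMT3A by 0.240, so DNMT3A lay nearer to a flat profile than to DNMT1. TET3 varied by 0.171 and TET2 by 0.222. A flat profile thus lay little farther from DNMT1, TET3 and TET2 than their nearest members did, and their nearness shows little of a shared pattern. The libraries and their GC difference were common to these profiles, and the values are a description.

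Other genes of the pathway were read from 5 lists. No gene of any list passed on knockdown in HCT116 or between the lines with shScr. On knockdown in UF1hypo, 1 of 10 tested copying and targeting partners fell and none rose, 2 of 8 methyl-CpG readers rose, 2 of 11 genes for removal of oxidised or deaminated bases rose and 1 fell, and 1 of 7 cofactor and TET partner genes fell. Their medians were -0.26, 0.06, 0.11 and -0.34, against 0.04 for all genes. Of 15 S phase genes none passed, with a median of -0.11. Of all genes 10.4% rose and 2.86% fell in this comparison.

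GADD45B, a stress-induced gene linked to active demethylation, rose from 28.0 and 30.4 TPM in UF1hypo shScr to 74.0 and 57.4 TPM in UF1hypo shUHRF1, a log2 fold change of 1.13 (adjusted p of 0.00599 in limma). NEIL2, a DNA glycosylase, fell from 41.8 and 42.6 TPM to 21.6 and 21.1 TPM (-0.95, adjusted p of 0.00537). Both also passed for the difference of the knockdown effects, at 1.39 and -0.98, with adjusted p-values of 0.0241 and 0.0421. ZBTB38, a zinc finger protein that binds methylated DNA, rose from 11.6 and 10.9 to 20.1 and 27.0 TPM (0.99, adjusted p of 0.0160). CDCA7L, the paralog of CDCA7, fell from 67.3 and 69.8 to 39.4 and 42.9 TPM (-0.72, adjusted p of 0.0129), and SMUG1, a uracil DNA glycosylase, rose from 27.1 and 25.8 to 44.7 and 42.2 TPM (0.69, adjusted p of 0.0390). The other genes that passed, named after their values were seen, were the methyl-CpG reader MBD1, at 0.59, and CXXC5, at -0.64. With GC content and length corrected all 7 genes passed on knockdown in UF1hypo, with GADD45B at 0.94 and NEIL2 at -1.13. Without UF1hypo shUHRF1 replicate 1 or replicate 2 the signs of all 7 genes held, with SMUG1 at 0.65 and 0.73. No gene passed in all 20 alternatives, and their number ran from 7 for SMUG1 to 17 for GADD45B. For the difference, GADD45B passed in 12 and NEIL2 in 8 of 19 alternatives.

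With shUHRF1 in both lines, 3 of 10 copying and targeting partners were lower in UF1hypo, as were 3 of 11 genes for removal of bases, 1 of 7 cofactor genes and 6 of 15 S phase genes. Higher in UF1hypo were 2 of 11 genes for removal of bases and 1 of 8 methyl-CpG readers. Of all genes, 9.60% passed as lower and 20.7% as higher. The largest fold changes of those outside the S phase list were -1.23 for CDCA7L (39.4 and 42.9 against 102 and 93.0 TPM), -1.15 for the uracil glycosylase UNG (58.5 and 75.7 against 151 and 148 TPM), -1.03 for NEIL3, -1.02 for NEIL2 and 0.97 for GADD45B, with adjusted p-values of 5.31e-04, 0.00116, 0.0169, 0.00203 and 0.00665 in limma. The S phase list had a median of -0.18 there and of -0.30 with shScr, where none of its 15 genes passed, and its part in the lower HELLS and CDCA7 was not tested. Outside it, the other genes that passed, also named after their values were seen, were PCNA, USP7, IDH2, SMUG1 and MBD1. Of the 16 related genes that passed here, all did so with GC content and length corrected, and all kept their sign without UF1hypo shUHRF1 replicate 1 or replicate 2. Without replicate 1 MKI67 was at -0.50 and USP7 at -0.36, and without replicate 2 IDH2 was at -0.50. CDCA7L, NEIL2, UNG and TYMS passed in all 20 alternatives, and USP7 passed in 4.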

How the data were processed

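RNA of 8 libraries was analysed from the deposited StringTie gene tables, 2 libraries in each of 4 groups taken from the sample titles. The authors trimmed reads with Fastp, and the submitters' processing notes name HISAT2 2.0.4, StringTie 2.1.4 and GRCh38. As deposited by the authors, TPM values are normalized for length and to 1 total per library, FPKM values for length and aligned bases, and coverage values are mean read depth per base, not scaled for depth. The authors tested with DESeq2, which needs counts, and these were not used here. Aligned gigabases were recovered as the highest ratio of coverage to FPKM in a library.

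Identifiers were matched to GENCODE 44 (60507 of 60649). log2(TPM + 1) of all libraries entered 1 model in limma 3.58.1 (R 4.3.3) with 4 groups and a trended prior, which leaves 4 residual degrees of freedom, over protein-coding genes with TPM above 1 in at least 1 library of a comparison. The fit was tested on simulated data in which all groups had equal spread, so that test does not cover the wider spread of UF1hypo shUHRF1. Other steps used Python 3.11.15, pandas 2.3.3, numpy 2.4.6 and matplotlib 3.10.9. GC content and length were those of the canonical transcript, and the correction removed each library's median deviation within 10 bins of each.

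The members and lists were chosen with earlier results of these data known. The text names all 10 members, of the related lists the genes that passed (up to 5 per comparison by absolute log2 fold change, S phase genes as counts), the 5 genes nearest to UHRF1 and each member's nearest member. The related lists hold 54 genes. Results were recomputed with a pseudocount of 0.1, without the TPM filter, with all annotated genes, the compared libraries alone, FPKM, median-ratio scaling, quantile normalization, no variance trend, library weights, the GC correction, a replicate block and each library left out. Coverage per gigabase, a crossed block and the alternatives for related genes were added after seeing the data.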

Additional observations from a re-analysis of the deposited data

How the results depend on the processing

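The signs of the fold changes that passed, of members and of related genes, held in every alternative run. The number of members that passed moved more. On knockdown in HCT116 it rose from 0 to 1 (UHRF1) with a pseudocount of 0.1, with the compared libraries alone, with library weights and after the GC correction. On knockdown in UF1hypo it went from 2 to 0 without the TPM filter, with the compared libraries alone and with library weights, to 1 with quantile normalization and with coverage per gigabase, and to 4 after the GC correction. For the difference it rose from 0 to 2 after the GC correction. Between the lines with shScr it rose from 0 to 1 with FPKM and to 5 with the compared libraries alone, library weights or the GC correction. The 5 members after the GC correction held DNMT1 in place of HELLS. With shUHRF1 the number went from 3 to 2 without the TPM filter, with the compared libraries alone and with library weights. It went to 4 with quantile normalization and to 5 after the GC correction. The share of all genes that passed moved too, after the GC correction to 3.28%, 31.0%, 16.2%, 15.9% and 46.4% in the 5 comparisons. On knockdown in HCT116 it was 0.244% with the pseudocount, 4.05% with the compared libraries alone and 4.13% with weights. In UF1hypo the compared libraries and weights both gave 4.13%, no TPM filter 11.8%, and quantile normalization and coverage 12.7%. Between the lines with shScr FPKM gave 4.68%, the compared libraries 23.9% and weights 28.2%. With shUHRF1 the compared libraries gave 16.6%, weights 12.6%, no TPM filter 24.4% and quantile normalization 32.2%. With 1 library left out, the share of all genes that passed was highest without a UF1hypo shUHRF1 library in all 5 comparisons. It was lowest without one of the others, so the member counts that follow moved with those of all genes. Such a fit leaves 1 library in a group, so a pass in it does not show that a call is stable. Leaving out 1 library gave 0 to 1, 0 to 6, 0 to 5, 0 to 5 and 1 to 4 members in these 5 comparisons in that order, with the highest counts without a UF1hypo shUHRF1 library and the lowest without one of the others.

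The deviations of same-numbered libraries correlated at -0.402 to 0.0547, which cannot show whether libraries were paired by number. The value of -0.402 was that between UF1hypo shScr and UF1hypo shUHRF1. The replicate differences of these groups had a Spearman's rho of -0.508 and 0.814 with GC content, and the part of GC content in this correlation was not tested. With the replicate block, the members that passed were 0 on knockdown in UF1hypo and 2 between the lines with shUHRF1. Of all genes, 10.3% and 25.9% passed in these fits. Crossing the numbers of UF1hypo shUHRF1, tried after seeing the correlation of -0.402, gave 2 members on knockdown in UF1hypo. Of all 13620 genes, 1924 (14.1%) then passed, against 1402 (10.3%) with the block as numbered.

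Among fold changes that did not pass, signs turned near 0. On knockdown in HCT116, UHRF2 went to 0.031, 0.042 and 0.058, and TET3 to 0.027, 0.034 and 0.057, with median-ratio scaling, quantile normalization and the GC correction, TET1 to 0.016 and 0.068 with the first and the last, and DNMT3B to 0.014 with the second. In UF1hypo, DNMT3A went to -0.16 after the GC correction, and TET2 to -0.0089 with FPKM, -0.016 with median-ratio scaling, -0.19 with quantile normalization and -0.0015 with coverage per gigabase. TET2 went to -0.11 in the difference with quantile normalization. With shUHRF1 between the lines, the GC correction took DNMT1 to -0.18, TET2 to 0.10 and TET3 to -0.18, and TET3 was -0.0025 with median-ratio scaling and -0.019 with coverage per gigabase. The cause was not tested. Quantile normalization moved the median of all genes by -0.11 on knockdown in UF1hypo and by -0.14 in both the difference and the lines with shUHRF1.

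Leaving out 1 library also turned signs. The ranges on knockdown in HCT116 were -0.061 to 0.035 for UHRF2, -0.17 to 0.077 for DNMT3B, -0.25 to 0.24 for TET1, -0.31 to 0.082 for TET2 and -0.22 to 0.19 for TET3. In UF1hypo they were -0.69 to 0.20 for UHRF2, -0.16 to 0.32 for DNMT3A and -0.22 to 0.29 for TET2. For the difference they were -0.67 to 0.22 for UHRF2, -0.36 to 0.13 for TET1 and -0.11 to 0.41 for TET2. Between the lines the range of DNMT3A with shScr was -0.064 to 0.35, and with shUHRF1 the ranges were -0.59 to 0.078 for UHRF1, -0.014 to 0.23 for DNMT1, -0.44 to 0.080 for TET2 and -0.15 to 0.26 for TET3.

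Depth per gene is unknown. The alternative that keeps only the largest record of a gene was not run, since no protein-coding identifier was repeated, and the compared libraries alone could not be fitted for the difference.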
